A study of Mus musculus with 18 samples.

Results

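Integrins are surface receptors, each made of an alpha and a beta chain, that attach ECs to the matrix under them and pass signals in both directions across the membrane. Transcripts of 9 integrin subunits of endothelium were followed: the alpha chains Itga1, Itga3, Itga5, Itga6 and Itgav and the beta chains Itgb1, Itgb3, Itgb4 and Itgb5. They were chosen by gene symbol, as 9 of the 16248 genes of the expression table, and all 9 passed the filter on low values that left 13983 genes for testing. PBS or cGAMP, an agonist of STING, was injected locally into FVB females, and ECs were sorted 3 h later. The tissue was the normal mammary fat pad of wild type mice, a spontaneous tumour of MMTV-PyMT mice, or a tumour implanted in the fat pad of wild type mice. In MMTV-PyMT mice a mammary tumour virus promoter drives the oncogene mainly in mammary epithelium, so the ECs are not the cells in which the oncogene is meant to act. The implanted tumours were grown from briefly cultured cells of such tumours placed with Matrigel, so the hosts carried no transgene. Each of the 6 groups of tissue and treatment had 3 libraries from young adult animals, and PBS served as the control in each tissue.

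The beta1 chain is the common partner: it joins alpha1 to bind collagens, alpha5 to bind fibronectin, and alpha3 or alpha6 to bind laminins of the basement membrane. The alphav chain joins beta3 or beta5 to bind vitronectin and other ligands that carry the RGD motif, and alphavbeta3 is known as an integrin of sprouting vessels. The beta4 chain pairs with alpha6 alone and is best known from the hemidesmosomes of epithelium, although ECs of mature vessels also carry it. STING is the adaptor through which cytosolic DNA leads to type I interferon and NF-kB target genes.

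The promoters of 3 alpha subunits whose transcripts rose under cGAMP in at least 1 tissue are shown first, because the results on cGAMP turn on these genes. The RefSeq promoter table for GRCm38.p6, which holds 250 bases before and 50 after each start site, matched 6 of the 9 members in 7 entries; Itga6, Itgb3 and Itgb4 had no entry. Capitals mark matches, on either strand, to the letters searched. The motif of SP1 was taken as GGGCGG, and that of ETS factors as CCGGAA. The interferon-stimulated response element was a pair of GAAA with any 2 bases between them, the NF-kB motif was GGG followed after any 3 bases by TTCC, and the AP-1 motif was TGANTCA. For the hypoxia response element the letters searched were ACGTG, and for the TATA box they were TATAAA.
Itga3, chr11:95076665-95076964, minus strand: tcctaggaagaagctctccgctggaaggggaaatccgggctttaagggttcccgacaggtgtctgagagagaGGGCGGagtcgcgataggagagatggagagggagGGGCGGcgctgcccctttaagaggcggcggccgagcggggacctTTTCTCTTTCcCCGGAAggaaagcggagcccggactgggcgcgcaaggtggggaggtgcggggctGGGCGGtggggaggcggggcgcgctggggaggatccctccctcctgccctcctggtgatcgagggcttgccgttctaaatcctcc
Itga5, chr15:103366742-103367041, minus strand: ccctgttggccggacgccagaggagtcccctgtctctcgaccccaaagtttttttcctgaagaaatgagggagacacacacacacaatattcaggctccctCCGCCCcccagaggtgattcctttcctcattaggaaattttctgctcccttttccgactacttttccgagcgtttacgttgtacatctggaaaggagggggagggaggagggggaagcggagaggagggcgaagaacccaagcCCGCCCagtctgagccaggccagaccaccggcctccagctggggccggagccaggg
Itgav, chr2:83724147-83724446, plus strand: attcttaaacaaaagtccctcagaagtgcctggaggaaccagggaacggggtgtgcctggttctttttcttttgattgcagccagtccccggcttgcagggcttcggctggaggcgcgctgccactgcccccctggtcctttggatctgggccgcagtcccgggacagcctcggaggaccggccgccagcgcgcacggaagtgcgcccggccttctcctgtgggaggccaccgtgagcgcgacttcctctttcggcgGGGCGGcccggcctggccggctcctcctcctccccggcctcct
The Itga3 promoter held 3 SP1 matches, 1 ETS match and 1 match to the interferon-stimulated response element, which began 100 bases before the start site. Its neighbouring Itga3 entry, at an inner start site, held 1 SP1 and 1 AP-1 match. The Itga5 promoter held 2 SP1 matches and the Itgav promoter 1, with none of the other 6 motifs in either window. Of all 32851 promoters in the table, 3.44% held the interferon-stimulated response element, 35.7% SP1, 14.9% ETS, 5.56% NF-kB, 7.81% AP-1, 19.6% the hypoxia response element and 13.6% the TATA box. A match is a description of the letters, and the lack of one says only that these letters are not in this window.

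All 9 subunits were well measured. Whole reads could be recovered from the FPKM values (fragments scaled for gene length and sequencing depth) for 99.99% of genes, and the libraries held 9185047 to 12200961 reads. The fewest reads on a member were 559, on Itgb3, for which counting error alone is 4.23%. Values of Itga6 rest on a length of 9142 bases rather than the 9025 of the gene models used here. Exons of Itga1 overlap those of Gm49395 on the same strand, and exons of Itgav and Itgb4 overlap those of antisense genes, so these 3 carry some uncertainty in read assignment.

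Markers of other cells were present in the sorted material and moved between groups. The summed FPKM of 8 endothelial markers was 715 to 1284 in the libraries of 5 groups and 1031, 1245 and 1731 in implanted tumours under cGAMP, where replicate 1 stood highest. The 8 epithelial markers summed to 976 to 1065 in MMTV-PyMT tumours under PBS, against 456 to 587 in the normal fat pad and 435 to 646 in implanted tumours. The 7 mural markers summed to 1002 to 1118 in the normal fat pad under PBS, against 229 to 314 in MMTV-PyMT and 217 to 257 in implanted tumours. The 5 fibroblast markers reached 490 and 602 in replicates 1 and 2 of implanted tumours under cGAMP. The 6 measured leukocyte markers summed to 224 in replicate 2 of implanted tumours under cGAMP and to 16.5 to 66.1 in the other libraries. Endothelial Cdh5 lay at 265 FPKM or more in every library, leukocyte Ptprc at 9.7 or less, and epithelial Epcam between 54.2 and 215. In such bulk samples, fewer cells of a type and less RNA per cell cannot be told apart, and the part of the markers in the integrin results was not tested.

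**Figure D1:**
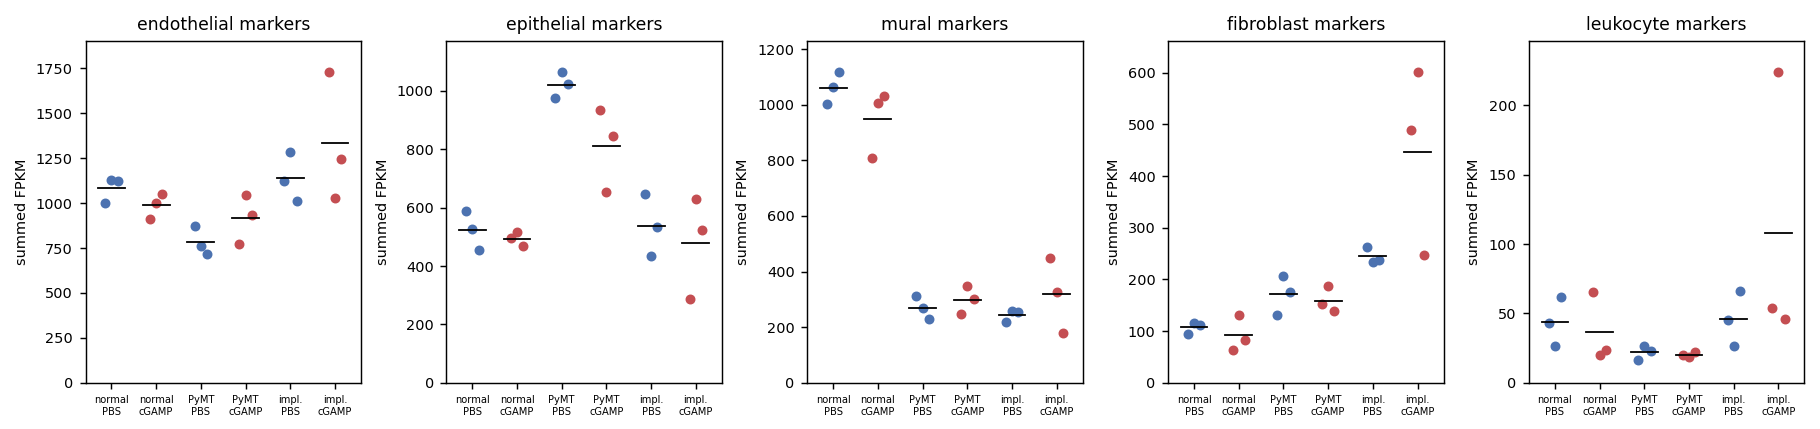
Summed FPKM of marker genes of 5 cell classes (vertical axis) in each of the 6 groups; points are libraries and bars group means, with PBS in blue and cGAMP in red. Epithelial markers were highest in MMTV-PyMT tumours, mural markers in the normal fat pad, and leukocyte markers in 1 library of implanted tumours under cGAMP (224).

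Itgb1 was the most abundant subunit in every library. In FPKM, which is a level per length, it made up 76.5% ± 0.778 (SD, n = 3) of the 4 beta chains in the normal fat pad under PBS and 70.8% ± 1.83 in implanted tumours under PBS. Among the 5 alpha chains, Itga6 led in the normal fat pad (36.3% ± 0.788) and in MMTV-PyMT tumours (49.2% ± 0.440). In implanted tumours under PBS Itga5 led instead, with 37.5% ± 1.46 against 33.3% ± 1.14 for Itga6. Itgb3 was the least abundant beta chain in the normal fat pad, at 3.21% ± 0.142 of the beta sum, and the second in implanted tumours, at 14.8% ± 0.492. The 9 transcripts together thus had a common beta chain in all 3 tissues, whereas the leading alpha chain differed between implanted tumours and the other tissues.

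**Figure D2:**
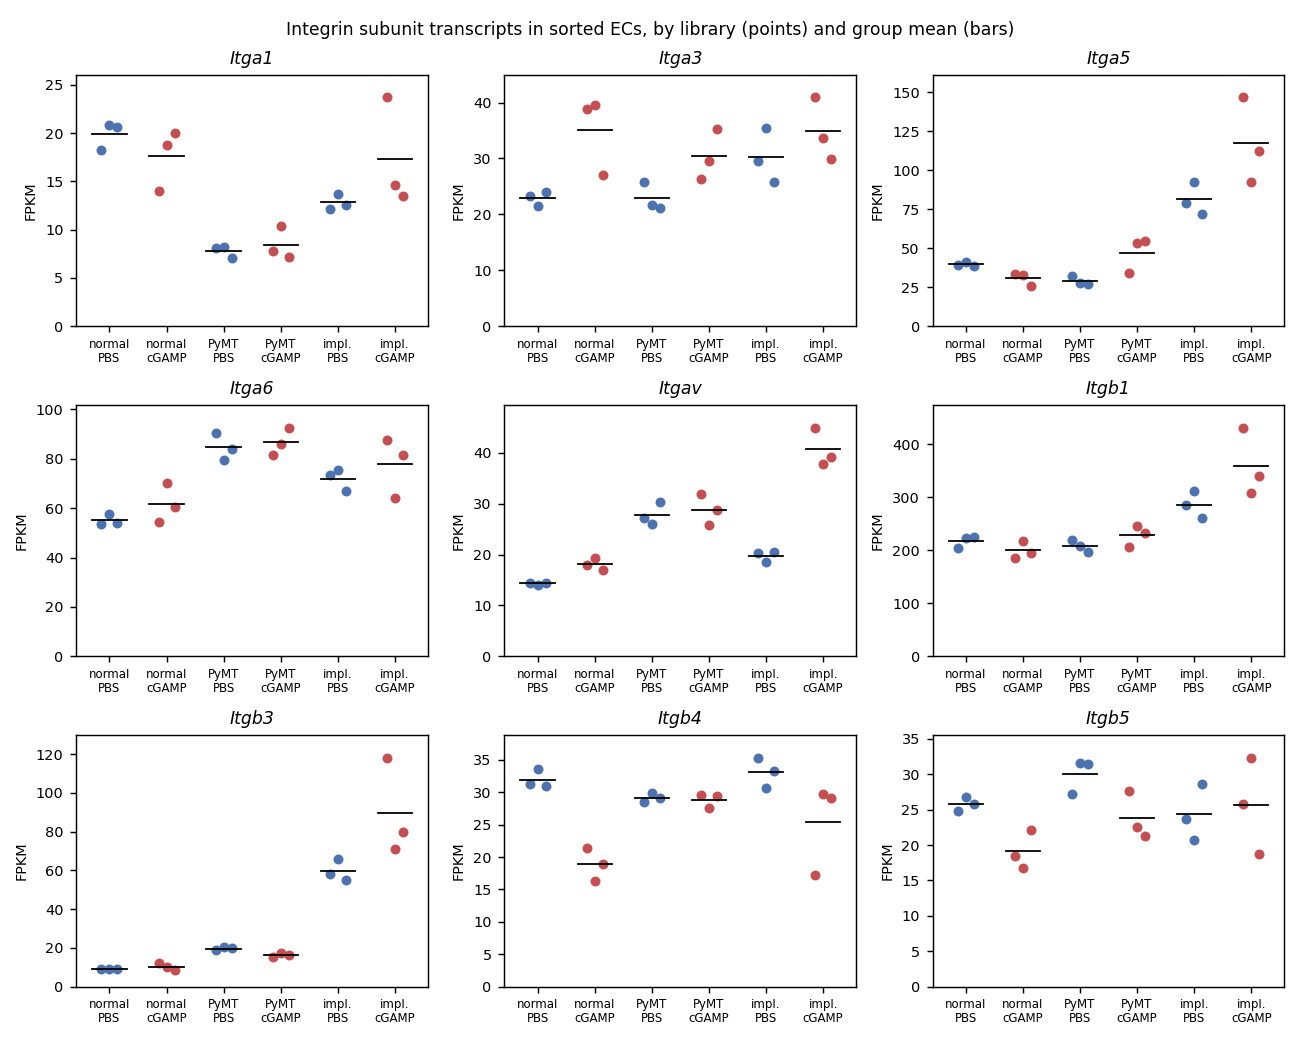
FPKM (vertical axes, from 0) of the 9 subunits in each library (points) with the group mean (bar), for 3 libraries per group; PBS is blue and cGAMP red. Itgb3 runs from about 9 in the normal fat pad to 71.2 to 118 in implanted tumours under cGAMP, and Itgb4 under cGAMP in the normal fat pad (16.3 to 21.3) lies below all libraries of that tissue under PBS.

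The first question was how subunit transcripts of tumour ECs differ from those of the normal fat pad without the agonist. Under PBS, 5 of 9 subunits passed the test (limma on log2(FPKM + 1), adjusted p under 0.05 over all genes) between MMTV-PyMT tumours and the normal fat pad, 3 higher and 2 lower, where 29.8% of all tested genes were higher and 26.6% lower. Between implanted tumours and the normal fat pad 6 of 9 passed, 5 higher and 1 lower, against 25.0% and 23.6% of all genes. Between the tumours 5 of 9 passed, 4 higher and 1 lower in implanted tumours, against 20.8% and 24.6%. The median log2 difference of the members was -0.01, 0.38 and 0.38 in these comparisons, and that of all genes 0.02, 0.01 and -0.01. Both tumours are set against the same normal libraries, so the first pair of comparisons is not independent. Taking every gene relative to the 8 endothelial markers, whose mean was lowest in MMTV-PyMT tumours, moved the median of all genes to 0.57, 0.14 and -0.43, and scaling by total reads moved the last pair to -0.13 and -0.13, so values under these alternatives are to be read against those medians.

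**Figure D3:**
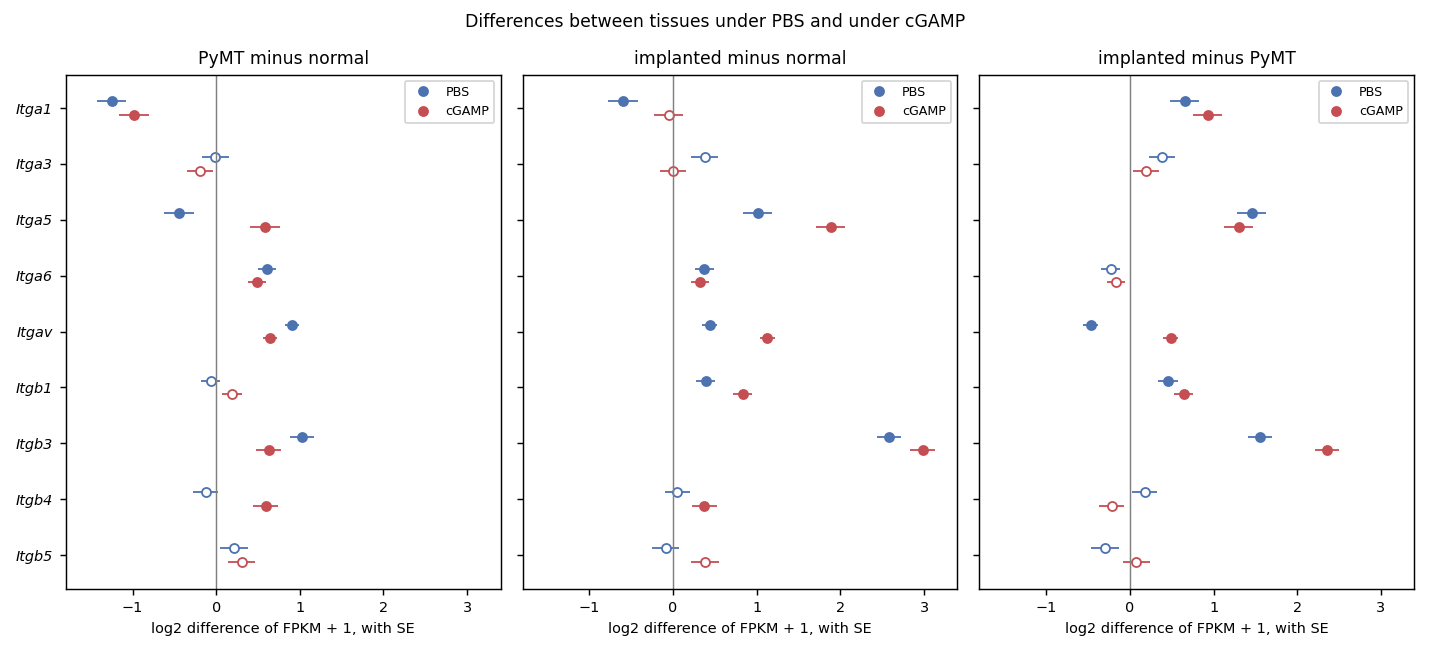
Difference in log2(FPKM + 1) between tissues (horizontal axes) for each subunit, under PBS (blue) and cGAMP (red); points are estimates, bars standard errors, and filled points have an adjusted p under 0.05. Itgb3 was higher in implanted tumours in all 4 comparisons that involve them, and Itgav lay lower in implanted than in MMTV-PyMT tumours under PBS (-0.47) and higher under cGAMP (0.48).

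Itgb3, the chain that gives alphavbeta3 its specificity, had the largest differences of the 9 in both comparisons with implanted tumours. Under PBS it measured 9.10, 9.26 and 8.99 FPKM in the normal fat pad, 18.8, 20.4 and 19.7 in MMTV-PyMT tumours, and 58.2, 65.9 and 54.9 in implanted tumours. The 3 tissues did not overlap. The log2 difference was 1.03 ± 0.15 (SE, adjusted p = 2.3e-05) for MMTV-PyMT and 2.58 ± 0.15 (adjusted p = 1.63e-09) for implanted tumours over normal, and 1.55 ± 0.15 (adjusted p = 9.78e-07) for implanted over MMTV-PyMT tumours. Relative to the endothelial markers the first of these became 1.58. As a fold of mean FPKM, implanted tumours stood 6.55-fold above the normal fat pad. Beta3 also pairs with the platelet chain alphaIIb: Itga2b measured 0.9 to 1.2 FPKM in implanted tumours under PBS, and the 3 measured platelet markers summed to 2.6 to 2.7 there against 7.7 to 12.1 in the normal fat pad.

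Itgav, the alpha partner of beta3 and beta5, followed another order. It measured 14.5, 14.1 and 14.4 FPKM in the normal fat pad, 27.2, 25.9 and 30.3 in MMTV-PyMT tumours and 20.4, 18.5 and 20.4 in implanted tumours, all under PBS. Again no library crossed into another tissue, but here the MMTV-PyMT tumours stood highest. Over normal, Itgav was higher by 0.91 ± 0.09 (adjusted p = 4.95e-07) in MMTV-PyMT and by 0.44 ± 0.09 (adjusted p = 0.000683) in implanted tumours, and implanted tumours lay below MMTV-PyMT tumours (-0.47 ± 0.09, adjusted p = 0.000489). Relative to the endothelial markers the first and the last became 1.46 and -0.89, and the difference of implanted tumours from normal was 0.26 (adjusted p = 0.0167) with scaling by total reads. Itgb5, the other partner, did not pass the test in any of the 3 comparisons, with group means of 25.8, 30.1 and 24.4 FPKM. The ratio of Itgb3 to Itgb5 within a library does not depend on library scaling. It was 0.354 ± 0.0113 (SD, n = 3) in the normal fat pad, 0.655 ± 0.0342 in MMTV-PyMT and 2.52 ± 0.639 in implanted tumours, so beta3 transcripts outnumbered beta5 transcripts, per length, in implanted tumours alone among the 3 tissues.

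The alpha chain of the fibronectin receptor moved in opposite directions in the tumours. Itga5 measured 39.0, 40.9 and 38.9 FPKM in the normal fat pad, 32.2, 27.9 and 26.7 in MMTV-PyMT tumours and 79.3, 92.2 and 72.2 in implanted tumours under PBS. Implanted tumours were higher than normal by 1.01 ± 0.18 (adjusted p = 0.000187) and higher than MMTV-PyMT tumours by 1.45 ± 0.18 (adjusted p = 1.04e-05). MMTV-PyMT tumours were lower than normal by a small margin (-0.44 ± 0.18, adjusted p = 0.0424). That call was lost, with adjusted p from 0.0508 to 0.123, without any 1 of the 3 normal PBS libraries, of MMTV-PyMT PBS replicates 2 and 3 or of implanted PBS replicate 1. It turned to 0.11 (adjusted p = 0.523) relative to the endothelial markers, still below the median of all genes under that alternative.

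Itga1, which joins beta1 to bind collagens, was the subunit lowered in both tumours. Under PBS it measured 18.3, 20.8 and 20.6 FPKM in the normal fat pad, 8.15, 8.16 and 7.05 in MMTV-PyMT tumours and 12.2, 13.7 and 12.6 in implanted tumours. The groups did not overlap. The log2 difference from normal was -1.25 ± 0.18 (adjusted p = 2.08e-05) in MMTV-PyMT and -0.60 ± 0.18 (adjusted p = 0.0102) in implanted tumours. Implanted tumours were above MMTV-PyMT tumours by 0.65 ± 0.18 (adjusted p = 0.00664), or 0.24 (adjusted p = 0.206) relative to the endothelial markers, on which scale the difference of MMTV-PyMT tumours from normal was -0.70 (adjusted p = 0.000706). Mural cells also carry this subunit, and the mural markers given above were likewise highest in the normal fat pad.

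The laminin receptor chains differed less. Itga6 was highest in MMTV-PyMT tumours, at 90.4, 79.5 and 83.9 FPKM under PBS, against 53.7, 57.5 and 54.2 in the normal fat pad and 73.3, 75.4 and 67.0 in implanted tumours. It exceeded normal by 0.61 ± 0.11 (adjusted p = 0.000218) in MMTV-PyMT tumours and by 0.38 ± 0.11 (adjusted p = 0.00972) in implanted tumours; the former was 1.16 relative to the endothelial markers, and the latter became 0.19 (adjusted p = 0.117) when libraries were scaled by total reads and 0.16 (adjusted p = 0.184) after quantile normalization. Epithelium also expresses Itga6, and the epithelial markers were highest in the same MMTV-PyMT libraries. Itga3 and Itgb4 passed no test between tissues under PBS, with Itga3 between 21.2 and 35.5 FPKM and Itgb4 between 28.4 and 35.3. Itgb1 was higher in implanted tumours, at 285, 312 and 260 FPKM, than in the normal fat pad (0.39 ± 0.11, adjusted p = 0.0106) and in MMTV-PyMT tumours (0.45 ± 0.11, adjusted p = 0.00459). The first of these was lost with scaling by total reads (0.20, adjusted p = 0.0757), with quantile normalization (0.23, adjusted p = 0.0507) and without implanted PBS replicate 2 (0.32, adjusted p = 0.0526). The second was 0.30 (adjusted p = 0.0146) with total reads and 0.03 (adjusted p = 0.836) relative to the endothelial markers.

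The next comparison asked what cGAMP did to these transcripts within 3 h. In the normal fat pad 3 of 9 subunits passed the test, 2 higher and 1 lower, where 13.7% of all genes were higher and 18.2% lower. In MMTV-PyMT tumours 1 was higher and 0 were lower, against 7.42% and 4.57%. In implanted tumours 4 were higher and 1 lower, against 20.3% and 18.8%. The median log2 change of the members was -0.13, 0.05 and 0.32, and that of all genes -0.04, -0.04 and -0.01. In implanted tumours the scaling of the libraries carried weight: scaling by total reads moved the median of all genes to -0.25, and only Itgav and Itgb4 of the members then passed. In MMTV-PyMT tumours that scaling moved the median to -0.14, with 2374 genes lower in place of 639. Relative to the endothelial markers the medians of all genes were 0.14, -0.21 and -0.05 in the 3 tissues. Values under these alternatives are to be read against those medians.

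**Figure D4:**
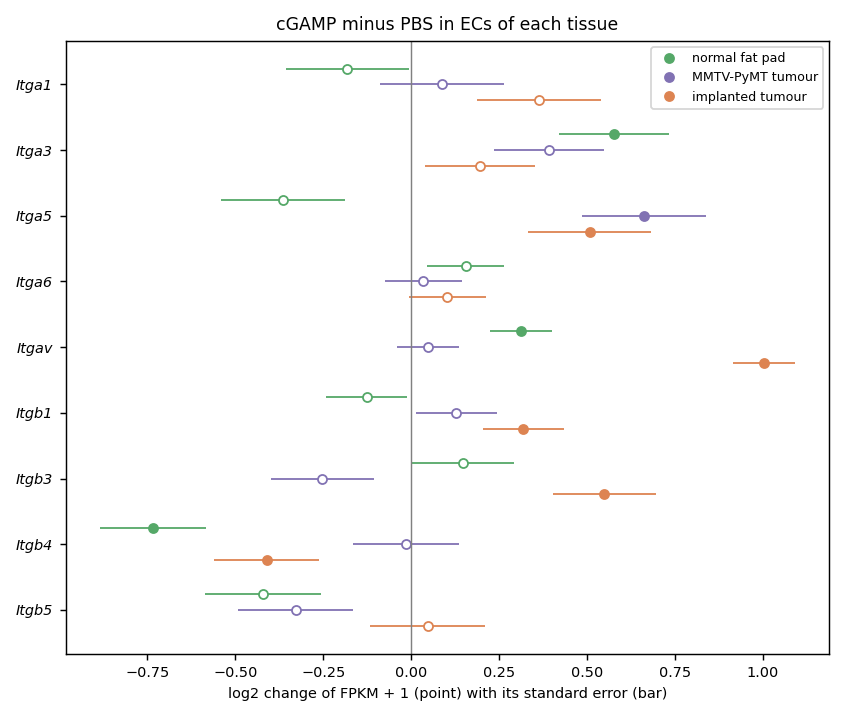
Change in log2(FPKM + 1) under cGAMP (horizontal axis) of each subunit in ECs of the normal fat pad (green), MMTV-PyMT tumours (purple) and implanted tumours (orange); points are estimates, bars standard errors, and filled points have an adjusted p under 0.05. Itgav in implanted tumours changed most (1.002), and Itgb4 in the normal fat pad fell most (-0.73).

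Itgav rose most. In implanted tumours it went from the 18.5 to 20.4 FPKM given above to 45.0, 37.8 and 39.2 under cGAMP, with no overlap. The log2 change was 1.002 ± 0.09 (adjusted p = 2e-07), a 2.06-fold rise of the mean, and it passed in all 18 fits without 1 library and in 9 of 9 other alternatives, with changes from 0.65 to 1.05. In the normal fat pad Itgav rose to 17.9, 19.3 and 17.0 FPKM, a change of 0.31 ± 0.09 (adjusted p = 0.0134). That call was lost without normal cGAMP replicate 2 (0.27, adjusted p = 0.0565) and relative to the endothelial markers (0.50, adjusted p = 0.0923). In MMTV-PyMT tumours the values of 31.8, 25.9 and 28.7 overlapped those under PBS (change 0.05 ± 0.09, adjusted p = 0.787). The change in implanted tumours exceeded that in MMTV-PyMT tumours by 0.96 ± 0.12 (adjusted p = 0.000202) and that in the normal fat pad by 0.69 ± 0.12 (adjusted p = 0.00122). Among all genes, 7.34% had a higher and 3.72% a lower change in implanted than in MMTV-PyMT tumours, 12.5% and 6.09% in implanted tumours than in the normal fat pad, and 5.48% and 2.90% in MMTV-PyMT tumours than in the normal fat pad. In each of these 3 contrasts 2 of the 9 members had a higher change and 0 a lower one. The difference from the normal fat pad was 0.38 (adjusted p = 0.0298) with scaling by total reads, 0.33 (adjusted p = 0.0551) after quantile normalization and 0.47 (adjusted p = 0.37) relative to the endothelial markers.

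Itgb3 showed its cGAMP change in implanted tumours. It measured 118, 71.2 and 79.8 FPKM there under cGAMP, above every PBS library of that tissue, with replicate 1 standing apart. The change was 0.55 ± 0.15 (adjusted p = 0.00715). It was 0.23 (adjusted p = 0.118) with scaling by total reads, 0.09 (adjusted p = 0.552) after quantile normalization and 0.55 (adjusted p = 0.0682) when the other 4 groups were left out of the fit. In the normal fat pad cGAMP libraries held 12.2, 9.94 and 8.72 FPKM (change 0.15 ± 0.15, adjusted p = 0.475), and in MMTV-PyMT tumours 15.3, 17.4 and 16.3 (change -0.25 ± 0.15, adjusted p = 0.287). The latter lay below all 3 PBS libraries of MMTV-PyMT tumours, although the test was not passed. It was passed with scaling by total reads (-0.38, adjusted p = 0.0354), under which the median of all genes in that comparison was -0.14. The change in implanted tumours exceeded that in MMTV-PyMT tumours by 0.80 ± 0.21 (adjusted p = 0.0187), or by 0.41 (adjusted p = 0.133) after quantile normalization.

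Itga5 rose in both tumours. In MMTV-PyMT tumours the cGAMP libraries held 34.1, 53.2 and 54.4 FPKM, each above the PBS libraries (change 0.66 ± 0.18, adjusted p = 0.022). This rested on few libraries: without MMTV-PyMT PBS replicate 2 or 3, or cGAMP replicate 2 or 3, the change was 0.55 to 0.64 with adjusted p from 0.0728 to 0.116, and relative to the endothelial markers it was 0.49 (adjusted p = 0.0767). In implanted tumours they held 147, 92.7 and 113 FPKM (change 0.51 ± 0.18, adjusted p = 0.0316). That call was lost without implanted PBS replicate 1 (0.49, adjusted p = 0.077) or 3 (0.43, adjusted p = 0.113) and without implanted cGAMP replicate 1 (0.33, adjusted p = 0.165) or 3 (0.52, adjusted p = 0.0548). It was also lost with scaling by total reads (0.19, adjusted p = 0.313) and quantile normalization (0.06, adjusted p = 0.77), and with the other 4 groups left out (adjusted p = 0.074). In the normal fat pad the values of 33.6, 32.8 and 25.8 FPKM were below all 3 PBS libraries (change -0.37 ± 0.18, adjusted p = 0.127). This fall passed after quantile normalization (-0.42, adjusted p = 0.0447) and with only the groups compared in the fit (-0.37, adjusted p = 0.0333). The change in tumours differed from that in the normal fat pad: by 1.03 ± 0.25 (adjusted p = 0.0195) for MMTV-PyMT and by 0.87 ± 0.25 (adjusted p = 0.0221) for implanted tumours. Relative to the endothelial markers these differences were 0.67 (adjusted p = 0.109) and 0.65 (adjusted p = 0.0831). That of implanted tumours was also lost with scaling by total reads (0.56, adjusted p = 0.0732) and after quantile normalization (0.49, adjusted p = 0.136). The first missed the threshold without MMTV-PyMT PBS replicate 3 (0.97, adjusted p = 0.0525) or cGAMP replicate 2 (0.93, adjusted p = 0.0538) or 3 (0.91, adjusted p = 0.0585), and the second without normal cGAMP replicate 3 (0.76, adjusted p = 0.0601), implanted PBS replicate 3 (0.79, adjusted p = 0.0575) or implanted cGAMP replicate 1 (0.70, adjusted p = 0.0524).

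Itgb4 was the subunit whose fall passed the test. In the normal fat pad it went from 31.2, 33.6 and 30.9 FPKM under PBS to 21.3, 16.3 and 19.0 under cGAMP, without overlap. The change was -0.73 ± 0.15 (adjusted p = 0.00161), a drop of the mean to 0.592 of its PBS level. The epithelial markers there summed to 456 to 587 under PBS and 469 to 515 under cGAMP, but single markers moved in different directions. Krt19 fell from 126 to 170 FPKM under PBS to 74.8 to 104 under cGAMP. Epcam stood at 54.2 to 68.5 under PBS and 70.8 to 78.1 under cGAMP, and Cdh1 at 20 to 33 and 33 to 50.9. Cldn4, Krt5, Krt8, Krt14 and Krt18 overlapped between treatments. The part of epithelial transcripts in the fall of Itgb4 was not tested. Every fit without 1 library kept the Itgb4 call, which was lost relative to the endothelial markers (-0.55, adjusted p = 0.188). In implanted tumours the cGAMP libraries held 17.2, 29.8 and 29.1 FPKM against 35.3, 30.7 and 33.4 under PBS (change -0.41 ± 0.15, adjusted p = 0.0393). This rested largely on replicate 1 under cGAMP, which also had the lowest epithelial sum (285): without it the change was -0.16 (adjusted p = 0.20), and the call was also lost without implanted PBS replicate 1 (-0.36, adjusted p = 0.118) or 3 (-0.41, adjusted p = 0.086), with only the groups compared (adjusted p = 0.174) and relative to the endothelial markers (-0.45, adjusted p = 0.266). It was larger with total reads (-0.71, adjusted p = 0.00277) and after quantile normalization (-0.66, adjusted p = 0.00253). In MMTV-PyMT tumours values of 29.5, 27.6 and 29.4 under cGAMP overlapped those under PBS (change -0.01 ± 0.15, adjusted p = 0.964). The change differed between MMTV-PyMT tumours and the normal fat pad by 0.72 ± 0.21 (adjusted p = 0.0468), just past the threshold: 14 of the 18 fits without 1 library, with values from 0.63 to 0.75, lost that call, as did a pseudocount of 0.1 (adjusted p = 0.0503), no filter (0.0507), both other scalings (0.60, adjusted p = 0.133, with total reads and 0.68, adjusted p = 0.0521, after quantile normalization) and the endothelial markers as reference (0.37, adjusted p = 0.555).

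Itga3, the other laminin receptor chain, rose in the normal fat pad. It went from 23.3, 21.5 and 24.1 FPKM to 38.9, 39.6 and 27.0, without overlap (change 0.58 ± 0.16, adjusted p = 0.0106). In MMTV-PyMT tumours the cGAMP libraries held 26.3, 29.6 and 35.2 FPKM, also above all 3 under PBS, without passing the test (change 0.39 ± 0.16, adjusted p = 0.117). In implanted tumours, at 40.9, 33.7 and 30.0, the groups overlapped (change 0.20 ± 0.16, adjusted p = 0.34). The Itga3 promoter printed above matches the letters of the interferon-stimulated response element, as 3.44% of all promoters do. The printed Itga5 and Itgav promoters do not, and the part of such matches in these changes was not tested. Itgb1 reached 431, 308 and 339 FPKM in implanted tumours under cGAMP and overlapped PBS, with a change of 0.32 ± 0.11 (adjusted p = 0.038) that was lost under both other scalings, turning to -0.18 (adjusted p = 0.124) after quantile normalization and falling to 0.00 (adjusted p = 0.992) with total reads. It was also lost without implanted PBS replicate 1 (0.32, adjusted p = 0.081) or 3 (0.25, adjusted p = 0.142) and without implanted cGAMP replicate 1 (0.18, adjusted p = 0.202), with only the groups compared (adjusted p = 0.17) and relative to the endothelial markers (0.28, adjusted p = 0.138). Itga1, Itga6 and Itgb5 passed the cGAMP test in no tissue. In the normal fat pad, however, Itgb5 went from 24.8, 26.7 and 25.8 FPKM to 18.5, 16.7 and 22.1, without overlap (change -0.42 ± 0.16, adjusted p = 0.0609).

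Under cGAMP the tissues were compared again. Between MMTV-PyMT tumours and the normal fat pad 5 members were higher and 1 lower (28.7% and 22.1% of all genes), between implanted tumours and the normal fat pad 6 were higher and 0 lower (31.3% and 24.8%), and between implanted and MMTV-PyMT tumours 5 were higher and 0 lower (26.0% and 24.9%). For the comparisons with implanted tumours the scaling carried weight here too: with total reads the median of all genes moved from 0.04 to -0.33 against the normal fat pad, with 1961 genes higher and 6964 lower in place of 4370 and 3469, and from 0.00 to -0.24 against MMTV-PyMT tumours, with 1964 and 6108 in place of 3636 and 3486. Itgb3 again differed most, by 2.98 ± 0.15 (adjusted p = 3.77e-10) between implanted tumours and the normal fat pad and by 2.36 ± 0.15 (adjusted p = 1.07e-08) between the tumours. Itgav now stood higher in implanted than in MMTV-PyMT tumours (0.48 ± 0.09, adjusted p = 0.000297), the reverse of the order under PBS. With scaling by total reads this became 0.15 (adjusted p = 0.136), after quantile normalization 0.20 (adjusted p = 0.0535) and relative to the endothelial markers 0.20 (adjusted p = 0.418).

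Itga5 was higher in MMTV-PyMT tumours than in the normal fat pad under cGAMP (0.58 ± 0.18, adjusted p = 0.0116). This was lost without normal cGAMP replicate 3 (0.47, adjusted p = 0.0621) or MMTV-PyMT cGAMP replicate 2 (0.49, adjusted p = 0.0512) or 3 (0.47, adjusted p = 0.0618). Between implanted tumours and the normal fat pad Itga5 differed by 1.88 ± 0.18 (adjusted p = 2.15e-07), Itgav by 1.13 ± 0.09 (adjusted p = 3.15e-08) and Itgb1 by 0.83 ± 0.11 (adjusted p = 1.43e-05). With total reads the latter pair came to 0.65 and 0.34, and after quantile normalization to 0.69 and 0.23 (adjusted p = 0.0456 for Itgb1), all past the threshold. Itgb4 in the same comparison (0.37 ± 0.15, adjusted p = 0.0437) overlapped between groups and turned to -0.10 (adjusted p = 0.633) with scaling by total reads. It was also lost after quantile normalization (adjusted p = 0.902), with only the groups compared (0.194) and relative to the endothelial markers (0.427). Itga6 did likewise: its difference of 0.32 ± 0.11 (adjusted p = 0.0196) turned to -0.17 (adjusted p = 0.155) with total reads and to -0.21 (adjusted p = 0.069) after quantile normalization, and was lost with only the groups compared (adjusted p = 0.121) and relative to the endothelial markers (0.23, adjusted p = 0.211). Without 1 library Itga6 lost the call in 4 of 18 fits (0.23 to 0.31) and Itgb4 in 14 of 18 (0.24 to 0.38). Itga1 remained lower in MMTV-PyMT tumours than in the normal fat pad (-0.98 ± 0.18, adjusted p = 0.000278). In implanted tumours it did not pass against the normal fat pad under cGAMP (-0.05 ± 0.18, adjusted p = 0.819), with overlapping groups and means of 17.3 and 17.6 FPKM. The implanted cGAMP libraries held 23.7, 14.6 and 13.5 FPKM, so replicate 1 stood apart. Neither the cGAMP change of Itga1 in implanted tumours (0.36, adjusted p = 0.114) nor its excess over that in the normal fat pad (0.54, adjusted p = 0.142) passed the test.

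Ratios of transcripts that share or compete for a partner were tested by exact permutation of libraries within tissue or within treatment, two-sided, with adjustment over 24 tests. Under cGAMP, over the 3 tissues, the ratio of Itgb4 to Itgb1 fell by 0.51 on the log2 scale (adjusted p = 0.0133), with changes of -0.64, -0.14 and -0.75 in the normal fat pad, MMTV-PyMT and implanted tumours. The ratio of Itgb4 to its only partner Itga6 fell by 0.50 (exact permutation, adjusted p = 0.0174), with changes of -0.92, -0.05 and -0.53 in the same order. In the normal fat pad it went from 0.579 ± 0.00691 (SD, n = 3) to 0.312 ± 0.0796. The ratio of Itga3 to Itga6 rose by 0.30 (exact permutation, adjusted p = 0.0175), with changes of 0.44, 0.37 and 0.10 in the 3 tissues.

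The same 6 ratios were compared between tissues over both treatments, where 0.005 is the smallest 2-sided p that the permutations can give. Itgb4 to Itga6 passed in none of these comparisons (exact permutation, adjusted p from 0.153 to 0.553). The test averages the treatments, which here had opposite signs. MMTV-PyMT tumours differed from normal by -0.75 under PBS and 0.13 under cGAMP, and implanted tumours by -0.33 and 0.06. Between the tumours the values were 0.42 and -0.065. Under PBS the tissues did not overlap: 0.571 to 0.584 in the normal fat pad, 0.315 to 0.376 in MMTV-PyMT and 0.407 to 0.498 in implanted tumours. Itgb4 to Itgb1 passed only between the tumours, lower in implanted tumours by 0.58 (exact permutation, adjusted p = 0.0133). Itgb3 to Itgb5 was higher in implanted tumours than in the normal fat pad by 2.75 on the log2 scale and than in MMTV-PyMT tumours by 2.13 (exact permutation, adjusted p = 0.0133 for both). It was also higher in MMTV-PyMT tumours than in the normal fat pad, by 0.62 (exact permutation, adjusted p = 0.0257), which became 0.58 (adjusted p = 0.0514) without MMTV-PyMT cGAMP replicate 2 or 3. Itga5 to Itga6 was higher in implanted tumours by 1.12 over normal and by 1.60 over MMTV-PyMT tumours (exact permutation, adjusted p = 0.0133 for both). Itga1 to Itgb1 was lower than in the normal fat pad in MMTV-PyMT (log2 difference -1.27) and in implanted tumours (-0.96) (exact permutation, adjusted p = 0.0133 for both). It was higher in implanted than in MMTV-PyMT tumours by 0.31 (exact permutation, adjusted p = 0.0185). Itga3 to Itga6 was lower in MMTV-PyMT tumours than in the normal fat pad (log2 difference -0.66, exact permutation, adjusted p = 0.0133). Between the tumours it was higher in implanted ones (0.50, exact permutation, adjusted p = 0.0185), and between implanted tumours and normal it did not pass (-0.16, exact permutation, adjusted p = 0.349). These ratios do not depend on how the libraries were scaled.

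**Figure D5:**
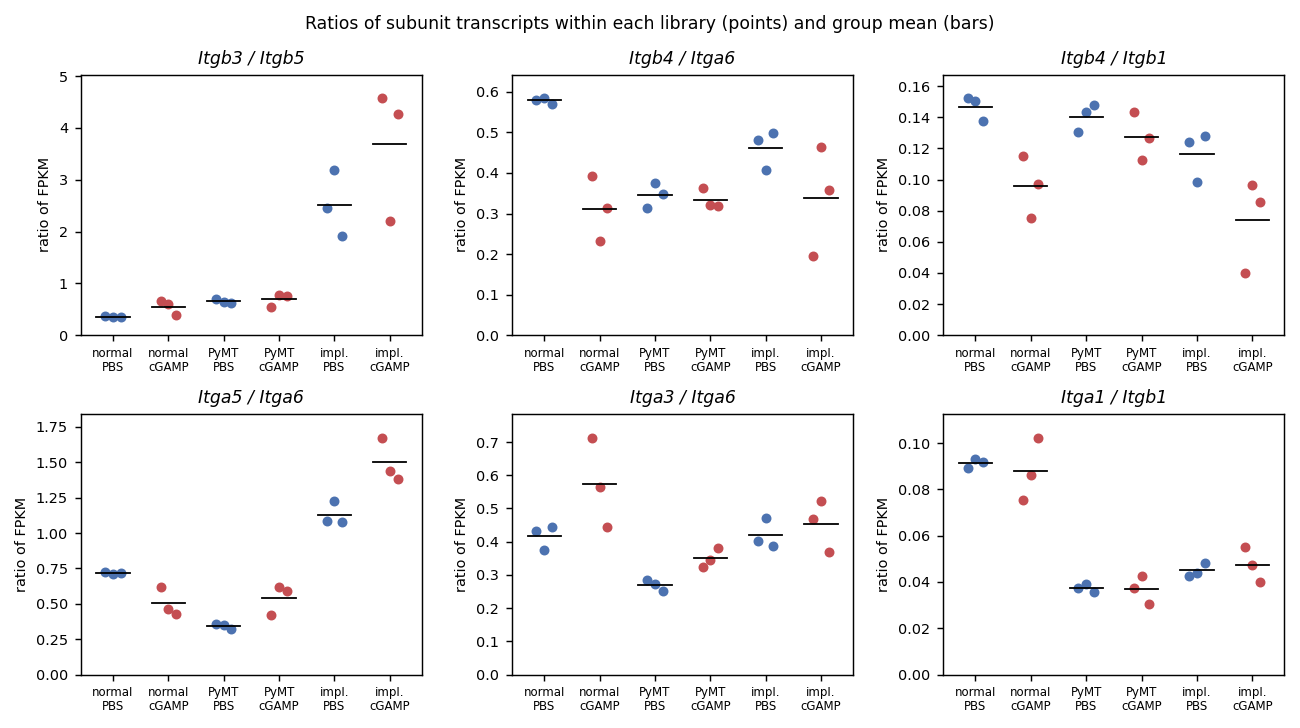
Ratios of FPKM (vertical axes, from 0) between pairs of subunits in each library (points) with the group mean (bar), for 3 libraries per group; PBS is blue and cGAMP red. The ratio of Itgb3 to Itgb5 lies above 1 in every implanted tumour library and below 1 in all others, and Itgb4 to Itga6 in the normal fat pad drops from 0.571 to 0.584 under PBS to 0.233 to 0.392 under cGAMP.

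The extracellular ligands of these receptors were measured in the same libraries. Of 24 matrix ligand genes tested, 17 were higher and 6 lower in implanted tumours than in the normal fat pad under PBS (median log2 difference 1.41, all genes 0.01), and 12 higher and 8 lower in MMTV-PyMT tumours (median 0.47, all genes 0.02). Nid2, a basement membrane nidogen, was higher on the log2 scale by 3.62 and Spp1, the RGD protein osteopontin, by 3.17 in implanted tumours. Vtn, the vitronectin bound by alphavbeta3, was lower there (log2 difference -2.19, adjusted p = 4e-07), while Itgb3 was higher. The mural markers, given above, were also lower in the same implanted libraries, and their part in the Vtn difference was not tested. Fn1, the fibronectin bound by alpha5beta1, was lower in MMTV-PyMT tumours than in the normal fat pad (log2 difference -1.86, adjusted p = 5.9e-06) and higher in implanted than in MMTV-PyMT tumours (2.57, adjusted p = 6.3e-07), the same directions as Itga5. These counts compare with 25.0% higher and 23.6% lower, and 29.8% and 26.6%, among all genes. Under cGAMP 6 ligands were higher and 2 lower in implanted tumours (all genes 20.3% and 18.8%), 1 and 3 in the normal fat pad (13.7% and 18.2%) and 1 and 0 in MMTV-PyMT tumours (7.42% and 4.57%). The first of these became 1 higher and 4 lower with total reads and 1 and 3 after quantile normalization. Of all 13983 genes, 1694 were then higher and 5913 lower with total reads, and 2359 and 3677 after quantile normalization. The list medians were 0.01 and -0.10, and those of all genes -0.25 and -0.09. Col1a1 and Fn1 were among those called higher in implanted tumours; the fibroblast markers, which include Col1a1, summed to 490, 602 and 248 in these cGAMP libraries against 233 to 263 under PBS, and their part was not tested.

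Genes that couple integrins to the cytoskeleton were followed next. Of 27 activators and adaptors, 2 were higher and 3 lower under cGAMP in the normal fat pad, 3 and 0 in MMTV-PyMT tumours, and 6 and 3 in implanted tumours, with medians of -0.08, 0.16 and 0.17 beside the shares and medians of all genes given for the members. In implanted tumours these became 2 higher and 9 lower with total reads (median -0.11, all genes -0.25). After quantile normalization they were 1 and 5 (median -0.07, all genes -0.09). Of all 13983 genes, 1694 were then higher and 5913 lower with total reads, and 2359 and 3677 after quantile normalization. Rap1b, a GTPase that activates integrins, rose on the log2 scale by 0.80 in implanted tumours and 0.41 in the normal fat pad, and Lims2, a partner of integrin-linked kinase, fell by 0.93 and 0.77 on the same scale. Between tissues under PBS, 2 were higher and 16 lower in MMTV-PyMT tumours than in the normal fat pad, 6 and 11 in implanted tumours, and 12 and 4 in implanted against MMTV-PyMT tumours, where 29.8% and 26.6%, 25.0% and 23.6%, and 20.8% and 24.6% of all genes were higher and lower. The medians were -0.30, -0.15 and 0.33. Relative to the endothelial markers the first and last comparisons turned, to 11 higher and 5 lower (median 0.25, all genes 0.57) and to 1 and 8 (median -0.09, all genes -0.43), so the list stayed below the median of all genes in the first and above it in the last. Lims2 (-2.76), Tns1 (-1.70) and Tns2 (-1.66), the latter pair tensins of focal adhesions, had the largest log2 differences in MMTV-PyMT tumours. Mural markers, given above, were lower in the same tumour libraries.

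Of 8 membrane partners of integrins, Plaur, the urokinase receptor that binds integrins in the same membrane, rose under cGAMP in every tissue, on the log2 scale by 1.83 in the normal fat pad, 1.53 in MMTV-PyMT and 1.57 in implanted tumours. Slc3a2, a heavy chain that associates with beta1, also rose in each, on the log2 scale by 0.62, 0.58 and 0.65. Cd47, the integrin-associated protein of alphavbeta3, rose on the log2 scale by 1.45 in implanted tumours (adjusted p = 7.4e-08) and by 0.48 in MMTV-PyMT tumours (adjusted p = 0.013). In all, 3 partners were higher and 2 lower in the normal fat pad (13.7% and 18.2% of all genes), 3 and 0 in MMTV-PyMT tumours (7.42% and 4.57%) and 4 and 1 in implanted tumours (20.3% and 18.8%), the last becoming 4 and 4 after quantile normalization. After quantile normalization 2359 of all 13983 genes were higher and 3677 lower there (list median 0.03, all genes -0.09). Between tissues under PBS, 3 partners were higher and 2 lower in MMTV-PyMT tumours than in the normal fat pad (29.8% and 26.6% of all genes). In implanted tumours they were 3 and 3 (25.0% and 23.6%). Relative to the endothelial markers these became 6 and 2 (median 0.58, all genes 0.57) and 3 and 1 (median -0.03, all genes 0.14). Cav1, the main protein of endothelial caveolae, was lower in both (log2 difference -1.62, adjusted p = 1.7e-07, in MMTV-PyMT and -1.22, adjusted p = 3.4e-06, in implanted tumours).

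The remaining integrin subunits, among them the chains of leukocytes and of muscle, were followed as a list. Of 14 tested, 0 were higher and 2 lower under cGAMP in the normal fat pad, 0 and 0 in MMTV-PyMT tumours, and 2 and 1 in implanted tumours, against the same shares of all genes. Itga8 fell in the normal fat pad (log2 change -0.49) and in implanted tumours (-0.75), and Itga7, a laminin receptor of muscle, fell in the normal fat pad (-0.61). Under PBS, 2 were higher and 7 lower in MMTV-PyMT tumours than in the normal fat pad (29.8% and 26.6% of all genes). For implanted tumours the counts were 3 and 3 (25.0% and 23.6%). Relative to the endothelial markers the former became 3 and 3 (median 0.02, all genes 0.57). On that scale 7751 of all 13983 genes were higher and 971 lower, so the list stayed below the median of all genes. Itga2, the collagen receptor chain that stands beside Itga1, was higher in implanted tumours than in the normal fat pad (log2 difference 1.20, adjusted p = 0.00011), where Itga1 was lower. The leukocyte chain Itgb2 measured 22.2 FPKM in implanted cGAMP replicate 2, the library with the highest leukocyte sum, and 7.7 or less elsewhere.

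Ranked by mean FPKM over the 6 groups, Itgb3 ran from implanted tumours under cGAMP (89.7) and PBS (59.7) through MMTV-PyMT tumours under PBS (19.6) and cGAMP (16.3) to the normal fat pad under cGAMP (10.3) and PBS (9.12), and only the last neighbours overlapped. For Itga6, by contrast, every pair of neighbours overlapped, from 86.6 in MMTV-PyMT tumours under cGAMP to 55.1 in the normal fat pad under PBS. For Itga1 the single gap fell between implanted tumours under PBS (12.8) and MMTV-PyMT tumours under cGAMP (8.43). The genes whose centred log2(FPKM + 1) lay nearest to a member over the 18 libraries, by root mean square difference, were Osbp2 (0.225) and Col12a1 (0.277) for Itgb3, Cpeb4 (0.117) and Clcn5 (0.117) for Itgav, and Mapk11 (0.172) and Robo4 (0.178) for Itga5. They were App (0.0823) and Ptpra (0.0995) for Itgb1, Strn4 (0.101) and Ppp4r1 (0.109) for Itga6, and Adamts12 (0.152) and Epb41l2 (0.153) for Itga1. For the laminin receptor chains they were Lmna (0.144) and Baz1a (0.148) beside Itga3, and Cc2d1a (0.119) and Cyhr1 (0.140) beside Itgb4. Pdgfra (0.156), a fibroblast marker, and Ugp2 (0.165) lay nearest to Itgb5.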

How the data were processed

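The members and gene lists were chosen with earlier results of these data known. The authors sorted live CD45-negative CD31-positive cells, sequenced directional libraries in paired ends, aligned reads to mm10 with STAR 2.7, counted them with HTSeq and deposited FPKM values per gene in 1 table. Columns of the normal fat pad carry names without a tissue and were assigned as the remaining tissue; 0 columns lacked a sample. The deposited FPKM values were multiples of whole reads: with GENCODE M21 gene lengths 98.51% of genes, and with fitted lengths 99.99%, gave whole reads (within 0.1 read), which the authors had scaled by median-of-ratios size factors (within 0.0096%).

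Genes with at least 1 FPKM in 3 libraries were tested with limma 3.58.1 (R 4.3.3) on log2(FPKM + 1) over all 18 libraries with a term per group and an intensity trend, adjusting p over 13983 genes (Benjamini-Hochberg) within each comparison; the pseudocount of 1 understates changes of low genes. Ratios were tested by exact permutation in Python 3.11. Scripts were tested on simulated data. Named genes were all members, the 2 genes nearest to each, and of each list those with the largest changes among genes past the threshold or those a small count refers to. Alternatives were a pseudocount of 0.1, no filter, a mean FPKM of at least 5, scaling by total reads, quantile normalization, voom on recovered reads, only the groups compared, a replicate block, a 2-fold limit, leaving out each library and, chosen after seeing the data, values relative to 8 endothelial markers and the counts of the gene lists under the 3 other scalings. Replicates were separate mice; no library repeated another.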

Additional observations from a re-analysis of the deposited data

Results flagged for a closer look

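Transcripts of 4 subunits changed differently under cGAMP between tissues, by the test of the difference itself (limma). The change of Itgav in implanted tumours exceeded that in MMTV-PyMT tumours by 0.96 (adjusted p = 0.000202) and that in the normal fat pad by 0.69 (adjusted p = 0.00122) on the log2 scale. The latter was 0.33 (adjusted p = 0.0551) after quantile normalization. For Itgb3 the change in implanted tumours exceeded that in MMTV-PyMT tumours by 0.80 (adjusted p = 0.0187), or by 0.41 (adjusted p = 0.133) after quantile normalization. The change of Itga5 exceeded that in the normal fat pad by 1.03 in MMTV-PyMT (adjusted p = 0.0195) and by 0.87 in implanted tumours (adjusted p = 0.0221), the latter 0.56 (adjusted p = 0.0732) with scaling by total reads and 0.49 (adjusted p = 0.136) after quantile normalization. For Itgb4 the change in MMTV-PyMT tumours exceeded that in the normal fat pad by 0.72 (adjusted p = 0.0468). That call was kept in only 4 of 18 fits without 1 library and in 3 of 9 other alternatives. Relative to the endothelial markers, the differences of Itgav (1.09, adjusted p = 0.0251) and Itgb3 (0.93, adjusted p = 0.0205) between the tumours passed the test and the other 4 did not.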

How the results depend on the processing

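Of 55 values of single members tried, 55 kept their direction and side of the threshold when genes needed a mean of 5 FPKM and with voom on recovered reads, and 54 with no filter or a pseudocount of 0.1. With scaling by total reads 42 did, with quantile normalization 39, with only the groups compared 48, with a replicate block 50 and relative to the endothelial markers 39. All 14 ratios that passed did so with a pseudocount of 1. Where no cause is given, it was not tested.

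The members past the threshold under cGAMP numbered 5 in place of 3 in the normal fat pad with quantile normalization or only the groups compared, 2 in place of 1 in MMTV-PyMT tumours with total reads, and in implanted tumours, in place of 5, 2 with total reads, 3 with quantile normalization and 1 with only the groups compared. The 2-fold limit, which by construction removes calls, left 0, 0 and 1. It left 2, 2 and 2 of the tissue differences under PBS, 0, 3 and 2 of those under cGAMP, and 1, 0 and 0 of the differences in the cGAMP change, in the order MMTV-PyMT against normal, implanted against normal, implanted against MMTV-PyMT. Those between MMTV-PyMT and normal were 1 in place of 2 with a pseudocount of 0.1 or no filter; those between implanted and normal, and between the tumours, were 1 in place of 2 with quantile normalization. Relative to the endothelial markers the cGAMP counts were 1, 0 and 3, and 0 differences in change remained for either tumour against normal. Calls over all genes fell on that scale too. Under cGAMP in the normal fat pad 1655 genes were higher and 280 lower, in place of 1920 and 2538. For the differences in change from normal, MMTV-PyMT tumours had 37 higher and 141 lower, in place of 766 and 405 (median -0.34). Implanted tumours had 348 and 277, in place of 1751 and 851 (median -0.18).

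Replicate numbers did not pair the libraries: same-numbered libraries correlated from -0.345 to 0.294 over 45 pairs, and 4 of 18 were closest to their own number. A replicate block left 3 in place of 5 members under cGAMP in implanted tumours and 1 in place of 2 differences in change between MMTV-PyMT and normal; the members it removed were Itgb1 (adjusted p = 0.0518) and Itgb4 (0.0542) in the first and Itgb4 (0.0693) in the second. It also ended the calls of Itga5 between MMTV-PyMT and normal under PBS (0.0569) and of Itgb4 between implanted and normal under cGAMP (0.0583).

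Without 1 library the counts ranged from 2 to 4, 0 to 1 and 2 to 5 under cGAMP, and from 0 to 2, 1 to 3 and 2 to 2 for the differences in change. Reversed values were those of Itgav under cGAMP in MMTV-PyMT tumours (-0.086 with total reads, -0.045 with quantile normalization, -0.124 relative to the endothelial markers, and -0.025 to 0.118 without 1 library, below 0 without MMTV-PyMT PBS replicate 2 or cGAMP replicate 1), Itgb4 there (-0.032 to 0.015 without 1 library, above 0 without PBS or cGAMP replicate 2), Itga3 in implanted tumours (-0.11 with total reads, -0.13 with quantile normalization), Itgb1 there (-0.18 with quantile normalization), Itga5 between MMTV-PyMT and normal under PBS (0.11 relative to the endothelial markers), and between implanted and normal under cGAMP Itga6 (-0.17 with total reads, -0.21 with quantile normalization) and Itgb4 (-0.10 with total reads). The depth of 9185047 reads or more per library put at least 559 reads on each member.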
